A study of Mus musculus with 8 samples.

Results

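The cytosolic route from citrate and acetate to palmitate was examined in white fat through 10 genes. They were the enzymes and carrier Acly, Acss2, Acaca, Acacb, Fasn, Me1 and Slc25a1, the lipogenic nuclear protein Thrsp, and the transcription factors Mlxipl (ChREBP) and Srebf1 (SREBP1). The genes were chosen with earlier results of these data known. A probe was then taken if the RefSeq transcript in its array annotation belonged to one of these genes, whatever its values. This gave 17 of the 55681 gene probes on the array, for all 10 genes, out of 19752 genes that could be named. All 17 exceeded background on all 8 arrays.

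The samples were white fat from mice at 10 weeks of age on a mixed C57BL6/129SV background (90%:10%), 4 of them Rap1-/- and 4 wild-type (WT). The paper reports that its profiling at this age used females and gonadal white fat. Per the study's methods, Rap1-/- is a constitutive whole-body deletion of the shelterin protein RAP1 (gene Terf2ip), made by crossing Rap1 flox/flox mice with a line carrying cre under the adenovirus EIIa promoter, which acts in the early embryo. The deletion is therefore not restricted to fat cells, and the mice were kept on standard chow. Each sample was hybridised to 1 one-colour Agilent array, and replicates are named as in the sample labels, which do not say whether samples came from separate animals. P-values measure only the spread between these samples. The question was how transcription in fat differs between the genotypes at this age.

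Values are log2 spot signals relative to the 75th percentile of the same array, which lay between 302 and 497 intensity units. The share of spots that exceeded background was 59.7% to 65.2%, and 0 spots were saturated. The deleted gene was read in opposite ways by its pair of probes. A_52_P381806 lay between 0.06 and 0.49 in WT and did not clear background in Rap1-/-, whereas A_55_P2094079 lay between -1.49 and -1.27 in WT and between 0.84 and 1.06 in Rap1-/-. Positions of the probes relative to the deleted part were not given in the sources used here. WT arrays occupied positions 1 and 2 and Rap1-/- arrays positions 3 and 4 of each slide, so position and genotype cannot be told apart. Replicates 1 and 2 of both genotypes were on slide 1 and replicates 3 and 4 on slide 2.

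Fat cells make fatty acids from glucose carbon when food is plentiful. Citrate leaves the mitochondrion, is cleaved to acetyl-CoA in the cytosol, and is carboxylated to malonyl-CoA, which fatty acid synthase extends to palmitate using NADPH. Insulin, acting through SREBP1, and glucose, acting through ChREBP, are the classical transcriptional inputs to these enzymes, together with the factors NF-Y and Sp1 that sit near their promoters.

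The start-site regions of the members were searched for the short motifs of these factors as a description. Whether the motifs bear on the values of the members was not tested. The windows are the RefSeq promoter windows on build GRCm38.p6, 250 bases before to 50 bases after each listed start, 14 windows for the 10 members. Both strands were searched. The NF-Y motif CCAAT, read as ATTGG on the other strand, occurred in 9 of the 10 members and in 41.1% of all 27025 genes with a window. The member without one was Acaca. Of 14 member windows 10 held it, against 37.4% of all 32851 windows. For 6 members a CCAAT motif lay within the last 130 bases before a start, and these stretches are shown to make its placing visible, with CCAAT or ATTGG in capitals, 5′ to 3′ on the gene's strand. They lie at chr11:120824548-120824677, minus strand (Fasn), chr2:155517913-155518042, plus strand (Acss2), chr16:17928220-17928349, minus strand (Slc25a1), chr7:97417551-97417680, minus strand (Thrsp), chr5:114165388-114165517, plus strand (Acacb) and chr11:60210472-60210601, minus strand (Srebf1, the start farthest downstream of 3 listed).
Fasn: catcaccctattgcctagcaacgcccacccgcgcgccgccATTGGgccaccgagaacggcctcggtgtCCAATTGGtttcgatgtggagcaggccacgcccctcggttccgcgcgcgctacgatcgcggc
Acss2: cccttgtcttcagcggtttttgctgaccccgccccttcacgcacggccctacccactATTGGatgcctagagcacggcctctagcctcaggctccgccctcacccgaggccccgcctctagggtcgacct
Slc25a1: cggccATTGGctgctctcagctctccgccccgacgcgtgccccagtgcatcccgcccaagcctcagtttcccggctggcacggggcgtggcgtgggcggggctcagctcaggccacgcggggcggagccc
Thrsp: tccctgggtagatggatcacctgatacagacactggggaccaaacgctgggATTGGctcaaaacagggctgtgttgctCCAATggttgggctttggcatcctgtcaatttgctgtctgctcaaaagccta
Acacb: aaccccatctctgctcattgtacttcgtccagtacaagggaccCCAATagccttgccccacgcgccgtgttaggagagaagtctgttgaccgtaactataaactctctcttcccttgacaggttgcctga
Srebf1: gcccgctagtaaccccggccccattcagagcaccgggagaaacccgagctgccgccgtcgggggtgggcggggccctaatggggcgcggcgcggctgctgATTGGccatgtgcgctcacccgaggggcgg

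In Fasn the motif began 90, 62 and 59 bases before the start, and the latter pair overlap as CCAATTGG, which also contains an E-box (CANNTG). It began 79 and 52 bases before the start in Thrsp, 73 in Acss2, 87 in Acacb, 125 in Slc25a1 and 30 in Srebf1. The Sp1 motif GGGCGG, which reads as CCGCCC on the other strand, was present in 6 members, Acly, Acss2, Me1, Slc25a1, Mlxipl and Srebf1, and in 38.2% of all genes. The palindromic E-box CACGTG, which is one form of CANNTG and is known to be bound by USF and ChREBP-type factors, was present in Slc25a1 and Mlxipl, 2 of 10 members, against 8.09% of all genes. Any E-box CANNTG was present in 8 members, in 11 of their 14 windows and in 72.3% of all windows.

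The sterol response element TCACNCCAC occurred in 1 member, Mlxipl, and in 1.44% of genes. The telomere repeat unit TTAGGG, the sequence of the chromosome ends that RAP1 covers, occurred once each in Me1 and Srebf1, in 2 of 14 member windows, and in 10.6% of all windows. Both single matches are shown, the motif in capitals, for Mlxipl at chr5:135106725-135106784, plus strand and for Me1 at chr9:86696035-86696094, minus strand; in Srebf1 the repeat reads ccctaa within the stretch above. These matches describe letters in the windows and nothing about binding.
Mlxipl: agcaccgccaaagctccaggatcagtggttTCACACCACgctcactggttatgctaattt
Me1: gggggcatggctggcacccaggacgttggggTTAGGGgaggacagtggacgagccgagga

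All 10 genes had a lower mean in Rap1-/- than in WT, with a median difference of -0.77 log2 units over the genes, against -0.04 over all genes or features tested. Of all probes, 59.6% had a lower mean in Rap1-/-, and of the member probes 17 of 17. None of the 17 probes passed the test. With limma and Benjamini-Hochberg adjustment over 33982 probes, 2 probes (0.00589%) passed an adjusted p of 0.05 on the whole array, and 0 were members. The adjusted p was 0.897 for every member probe except that of Mlxipl, where it was 0.914. An unadjusted p under 0.05 with a lower mean in Rap1-/- was reached by 3.2% of all probes and by 5 of 17 member probes, which belonged to Acaca (3 probes) and Me1. The opposite direction held 1.63% of all probes and 0 members. A mean at least 1.5-fold lower in Rap1-/- was seen for 1.77% of all probes and for 15 of 17 member probes, all but those of Thrsp and Mlxipl. Probes of a gene share its transcript, and the members shared the same 8 arrays, so these counts are not counts of independent events. The genes were also chosen with earlier results of these data known, so the counts are a description and not a test. In RNA from whole tissue, fewer cells of a type and less RNA per cell cannot be told apart.

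**Figure D1:**
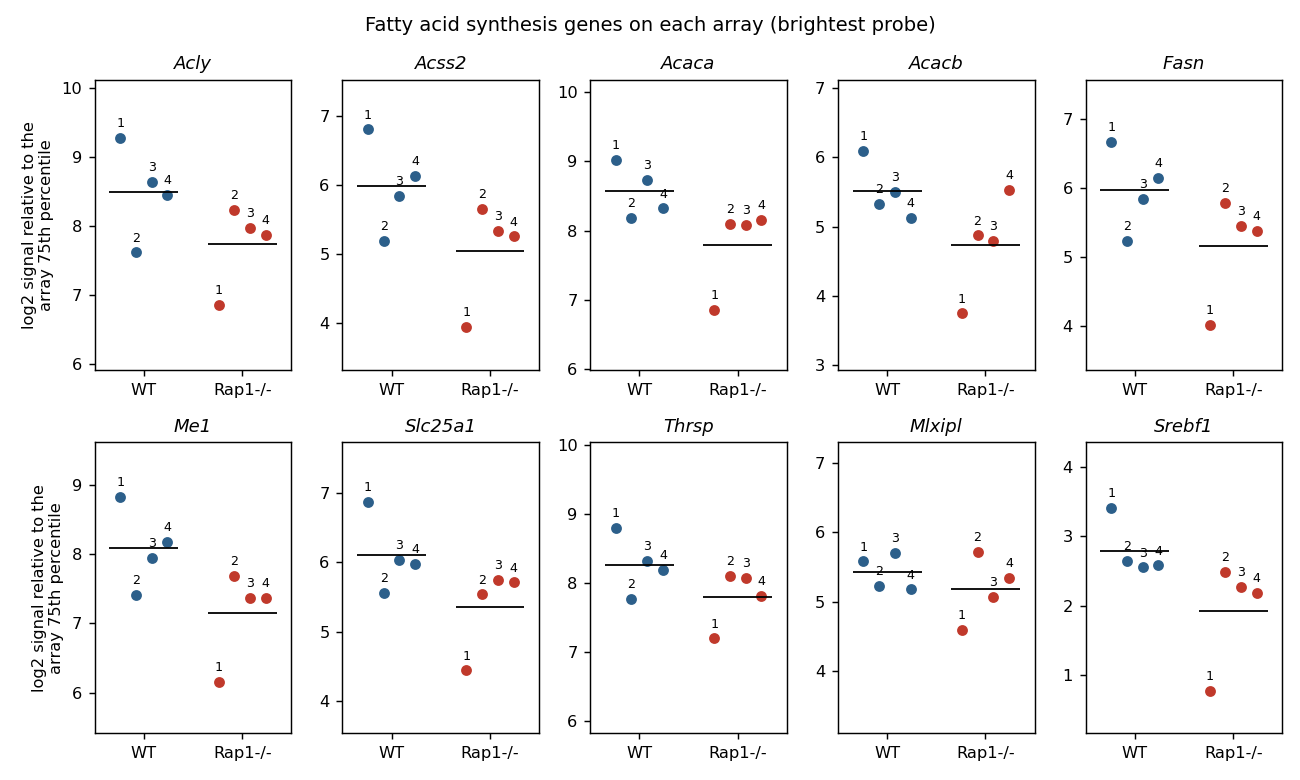
Log2 signal relative to the 75th percentile of each array (vertical axis) for the brightest probe of each gene on the 4 WT (blue) and 4 Rap1-/- (red) arrays; digits are replicate numbers, lines are group means, and all panels span the same number of log2 units. Rap1-/- replicate 1 is the lowest point in all 10 panels and WT replicate 1 the highest in 9.

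The first steps supply cytosolic acetyl-CoA. Slc25a1, the carrier that exports citrate from mitochondria, read 4.44, 5.54, 5.75 and 5.71 in Rap1-/- replicates 1 to 4 and 6.87, 5.56, 6.04 and 5.97 in WT replicates 1 to 4 (probe A_66_P130241). Rap1-/- replicate 1 lay below the other 7 arrays and WT replicate 1 above them, and the groups overlapped through WT replicate 2. The difference was -0.75 ± 0.36 (SE, n = 4 per genotype, 95% interval -1.58 to 0.07, exact two-sided permutation p = 0.0857).

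Acly, ATP citrate lyase, which splits that citrate, read 6.86, 8.23, 7.97 and 7.87 in Rap1-/- against 9.28, 7.62, 8.64 and 8.45 in WT on its brighter probe (A_55_P2025954). Here WT replicate 2 was lower than 3 of the 4 Rap1-/- arrays. The difference was -0.76 ± 0.39 (95% interval -1.66 to 0.14, exact p = 0.171, n = 4 each), and the dimmer probe A_55_P2082914 differed by -1.02 ± 0.52. Acss2, which makes acetyl-CoA from acetate, read 3.95, 5.66, 5.33 and 5.25 in Rap1-/- against 6.80, 5.18, 5.84 and 6.13 in WT (A_55_P1988789). On brightest probes it had the widest span of the 10 genes, 7.21-fold over the 8 arrays, and WT replicate 2 again lay among the Rap1-/- values. Its difference was -0.94 ± 0.43 (95% interval -1.94 to 0.06, exact p = 0.114, n = 4 each), with -0.79 ± 0.47 on A_55_P1988795.

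Acetyl-CoA carboxylase makes malonyl-CoA, the chain-extending unit, and it exists as a cytosolic form, Acaca, and a form at the mitochondrial surface, Acacb, whose malonyl-CoA is known for restraining fatty acid entry into mitochondria. Acaca read 6.86, 8.09, 8.08 and 8.16 in Rap1-/- against 9.02, 8.19, 8.73 and 8.32 in WT (A_55_P2019058). The groups did not overlap, although the gap between the highest Rap1-/- value and the lowest WT value was small beside the spread within a genotype. The difference was -0.77 ± 0.32 (95% interval -1.51 to -0.04, limma unadjusted p = 0.0420, adjusted p = 0.897), and the exact p of 0.0286 is the smallest that 4 against 4 arrays can give. The other probes of Acaca also gave groups that did not overlap, with differences of -0.86 ± 0.31 (A_55_P2084703) and -1.01 ± 0.41 (A_55_P2121392).

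Acacb read 3.75, 4.87, 4.80 and 5.53 in Rap1-/- against 6.10, 5.33, 5.50 and 5.12 in WT (A_55_P2019054). Unlike the other enzymes it was high on Rap1-/- replicate 4, which exceeded 3 of the 4 WT arrays. The difference was -0.78 ± 0.37 (95% interval -1.62 to 0.07, exact p = 0.114, n = 4 each), and -0.82 ± 0.39 on A_55_P2104532. Within slide 1 it was -1.40 and within slide 2 it was -0.15.

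Fasn, the fatty acid synthase that builds palmitate, read 4.01, 5.78, 5.45 and 5.38 in Rap1-/- against 6.67, 5.23, 5.84 and 6.14 in WT (A_52_P100252, its single probe). The 3 Rap1-/- replicates 2 to 4 lay above WT replicate 2 and below WT replicates 1, 3 and 4. The difference was -0.81 ± 0.43 (95% interval -1.79 to 0.16, exact p = 0.171, n = 4 each), which is 1.76-fold lower in Rap1-/- on the scale of the group means.

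Me1, the cytosolic malic enzyme that yields NADPH for the synthase, read 6.15, 7.69, 7.37 and 7.37 in Rap1-/- against 8.83, 7.41, 7.94 and 8.17 in WT (A_55_P2009952). It had the largest difference of the 10 genes on their brightest probes, -0.94 ± 0.39 (95% interval -1.83 to -0.05, limma unadjusted p = 0.0402, adjusted p = 0.897, exact p = 0.0571). Only Rap1-/- replicate 2 and WT replicate 2 crossed between the groups. Its remaining probes differed by -1.05 ± 0.46 (A_55_P2016842) and -1.01 ± 0.43 (A_55_P2171413).

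Thrsp (Spot14), a nuclear protein tied to the lipogenic response to thyroid hormone and carbohydrate, read 7.20, 8.11, 8.07 and 7.81 in Rap1-/- against 8.80, 7.77, 8.31 and 8.18 in WT. WT replicate 2 was lower than Rap1-/- replicates 2, 3 and 4. The difference was -0.47 ± 0.26 (95% interval -1.07 to 0.14, exact p = 0.171, n = 4 each, A_55_P2018666).

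Srebf1 and Mlxipl encode the transcription factors that carry the insulin and glucose inputs. Srebf1 read 0.76, 2.48, 2.27 and 2.18 in Rap1-/- against 3.41, 2.64, 2.55 and 2.58 in WT (A_55_P2002557), so that the groups did not overlap and WT replicates 2 to 4 lay within 0.1 log2 units of each other. Its difference was -0.87 ± 0.38 (95% interval -1.75 to 0.01, limma unadjusted p = 0.0512, adjusted p = 0.897), with the smallest possible exact p of 0.0286. Without both arrays numbered replicate 1 it was -0.28.

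Mlxipl read 4.59, 5.71, 5.07 and 5.34 in Rap1-/- against 5.58, 5.23, 5.70 and 5.18 in WT (A_55_P2119957), so that the highest value of all belonged to Rap1-/- replicate 2. Its difference was the smallest of the 10, -0.24 ± 0.24 (95% interval -0.79 to 0.30, exact p = 0.486, n = 4 each), and it was 0.0047 without both arrays numbered replicate 1. Whether Mlxipl and Srebf1 differ in their response to the genotype was not tested. The RefSeq windows list 2 starts for Mlxipl and 3 for Srebf1, and each gene had 1 probe, so forms starting at different places were not measured apart.

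Probes whose groups did not overlap, with Rap1-/- lower, made up 2.27% of all probes and 4 of 17 member probes, 3 of Acaca and 1 of Srebf1. With Rap1-/- higher the shares were 0.889% of all probes and 0 members. The other 8 genes overlapped, in each case because WT replicate 2 or another WT array read below the highest Rap1-/- array.

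**Figure D2:**
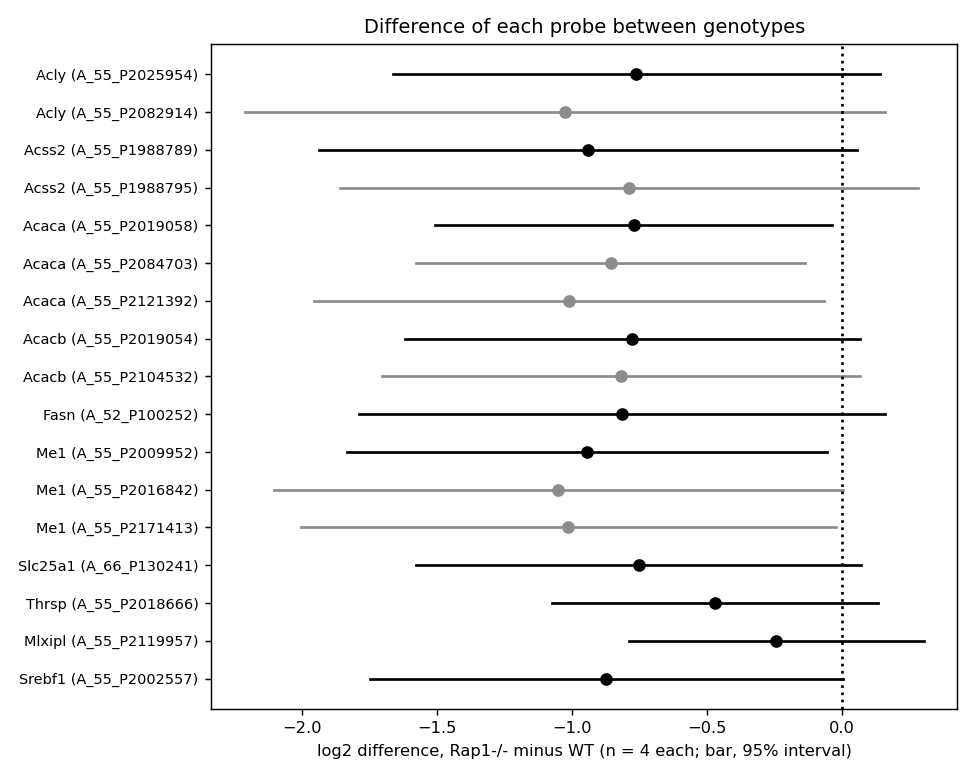
Difference in log2 signal between Rap1-/- and WT (horizontal axis) for the 17 probes, with bars for the 95% interval from limma; black marks the brightest probe of a gene and grey the others. All 17 points lie below 0, from -1.05 for a probe of Me1 to -0.24 for Mlxipl, and most bars reach 0.

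The members shared their lowest array and, except for Mlxipl, their highest. Rap1-/- replicate 1 was the lowest of the 8 arrays for 17 of 17 probes and WT replicate 1 the highest for 16 of 17. The mean of the 10 genes, each centred over the 8 arrays, was -1.30 on Rap1-/- replicate 1 and 0.06, -0.14 and -0.09 on replicates 2, 3 and 4, against 0.98 on WT replicate 1 and -0.14, 0.35 and 0.27 on replicates 2, 3 and 4. The arrays at both ends carry the same replicate number and lay on the same slide. These end arrays were not particular to the members. They also held the lowest and highest list means for glucose and pyruvate supply (-0.49 and 0.44) and for elongation and desaturation (-0.41 and 0.43). NADPH supply, triglyceride assembly, ChREBP targets, upstream factors and relatives of member genes did likewise. SREBP processing, acetyl-CoA carboxylase control, insulin signalling, cholesterol synthesis and mitochondrial fatty acid synthesis did not share both ends. WT replicate 2 was below at least 1 Rap1-/- array for 13 of 17 probes and below the Rap1-/- mean for 4.

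**Figure D3:**
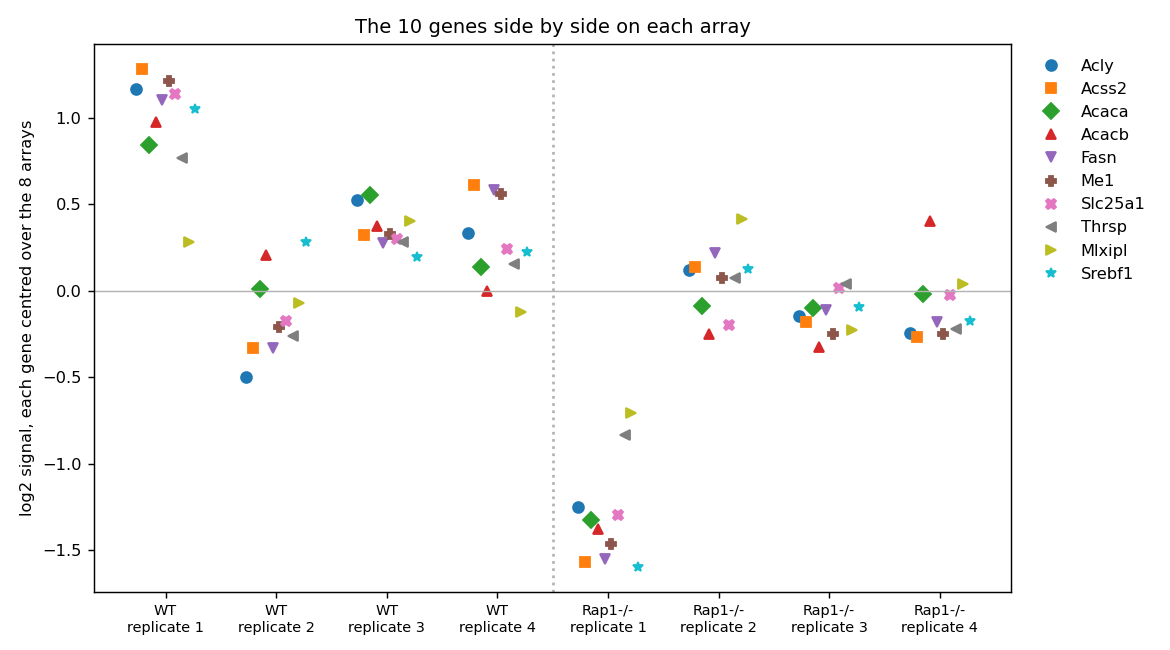
Log2 signal of each gene centred on its own mean over the 8 arrays (vertical axis), shown array by array, WT left and Rap1-/- right of the dotted line. The genes lie together on each array, near -1.3 as a mean on Rap1-/- replicate 1 and near 0.98 on WT replicate 1, while Mlxipl and Thrsp move least and Acacb leaves the others on Rap1-/- replicate 4.

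The size of the difference between the genotypes changed with these end arrays. The median over the 10 genes was -0.45 without Rap1-/- replicate 1, -0.58 without WT replicate 1 and -0.23 without both, an alternative chosen after the values were seen. It was -1.16 within slide 1 and -0.37 within slide 2. With both left out, Me1 differed by -0.37, Acaca and Acss2 by -0.30 each, and Acly and Fasn by -0.21 and -0.20. Of the 10 genes, 9 kept a lower mean in Rap1-/- in that setting and Mlxipl did not. Leaving out WT replicate 2 moved the median the other way, to -0.93.

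Within a genotype the members varied more than most transcripts. The within-genotype SD of the 10 genes ran from 0.38 for Mlxipl to 0.71 for Acss2, against a median of 0.21 over all probes tested. The members' SDs stood at percentile 79.9 (Mlxipl) to 96.0 (Acss2) of all probes. Thrsp, with 0.42, was the next lowest, at percentile 83.9. A wide spread was not particular to the members, whose median percentile was 93.9. Among lists described below, it was 83.2 for cholesterol synthesis, 76.7 for glucose and pyruvate supply and 99.9 for skeletal muscle markers. In contrast, it was 37.7 for insulin signalling and 11.0 for SREBP processing.

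**Figure D4:**
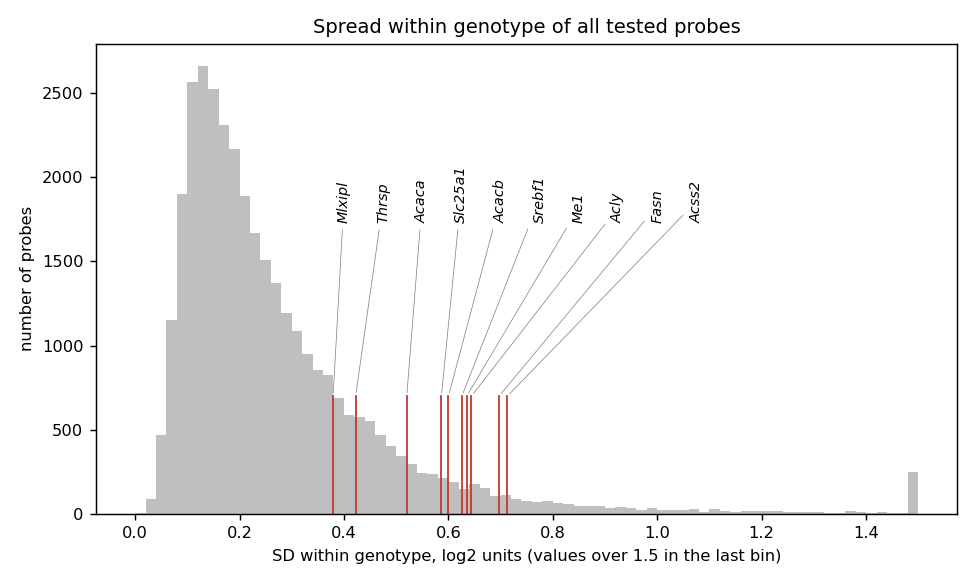
Number of probes (vertical axis) by within-genotype SD in log2 units (horizontal axis) for all 33982 probes tested, with red lines at the brightest probe of each gene. The 10 genes lie between 0.38 and 0.71, to the right of the median of 0.21.

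Deviations from the genotype means were compared between genes to describe this shared movement. Over the 8 arrays Pearson r between members was 0.66 to 1.00 with a median of 0.90 over 45 pairs, and Spearman rho had a median of 0.86. The points are single arrays of one RNA each, and r is high for any genes that share their extremes on the same arrays. Without both arrays numbered replicate 1, r over 6 arrays had a median of 0.41 and ran from -0.60 to 1.00. Over these 6 arrays the median r of Acly with the other members was 0.74, while that of Srebf1 was 0.12 and that of Acacb went from 0.75 over 8 arrays to -0.30. Probes of the same gene followed each other with r of 0.94 to 1.00 over 9 pairs, so the positions of the arrays were reproduced by separate probes on the same hybridisation.

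Genes around the route were examined in lists. None of their genes passed the test, and medians are given beside -0.04 for all genes or features, of which 60.5% were lower in Rap1-/-. Closest in kind was elongation and desaturation, in which 9 of 12 genes were lower and 3 higher (median -0.20). Elovl6, which extends the palmitate made by Fasn, read 3.45, 5.42, 5.12 and 5.46 in Rap1-/- against 6.82, 5.21, 5.94 and 5.70 in WT. It thus had the same lowest and highest arrays as the members, and its difference of -1.06 ± 0.50 (exact p = 0.0857, n = 4 each) exceeded in size the -0.94 of Me1. The others by p were the trans-enoyl reductase Tecr (-0.40) and Elovl7 (0.49), while the desaturase Scd1 differed by -0.24 ± 0.19.

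Of 19 genes for glucose and pyruvate supply, 16 were lower and 3 higher (median -0.32), among them Pcx, pyruvate carboxylase, at -0.54 ± 0.22 and the phosphofructokinase Pfkl at -0.46 ± 0.20. Pdk4, a kinase that switches off pyruvate dehydrogenase, differed by 0.63 ± 0.27, with 2.18, 2.45, 2.44 and 3.26 in Rap1-/- against 1.48, 2.21, 1.81 and 2.31 in WT. Of 11 genes in the NADPH supply list, 8 were lower (median -0.15). The smallest p-values belonged to Tkt (-0.67 ± 0.28), Taldo1 (-0.44 ± 0.18) and Rpe (-0.25 ± 0.13), pentose phosphate enzymes that do not themselves form NADPH. G6pdx, which opens that pathway and does form NADPH, differed by -0.08 ± 0.25. Of 16 genes of triglyceride assembly, 14 were lower (median -0.27). Dgat1, which adds the last acyl chain, read 4.26, 4.44, 4.60 and 4.49 in Rap1-/- against 5.23, 4.85, 4.72 and 4.95 in WT, without overlap (-0.49 ± 0.13, limma unadjusted p = 0.00508, adjusted p = 0.897). The acyltransferases Gpat3 and Gpat4 differed by -0.58 ± 0.18 and -0.29 ± 0.10.

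The lists of regulators, and the list of ChREBP targets, had medians from -0.14 to 0.00. The lists for cholesterol synthesis (-0.06) and mitochondrial fatty acid synthesis (-0.05), described below, were also near 0. Of 8 genes in the SREBP processing list, which also holds the SREBP2 gene Srebf2, 4 were lower and 4 higher (median 0.00). They included Insig1, which retains SREBP in the endoplasmic reticulum and is itself a known target (-0.33 ± 0.38). Gsk3b differed by -0.13 ± 0.10 and Srebf2 by -0.14 ± 0.16. Of 17 upstream or partner factors, 12 were lower (median -0.09, single genes from -0.92 to 0.28). The smallest p-values belonged to Cebpa at -0.30 ± 0.11, Pparg at -0.28 ± 0.11 and the NF-Y subunit gene Nfyb at 0.28 ± 0.11. Of 8 ChREBP targets outside the members, 7 were lower (median -0.14), with Gpd1 at -0.43 ± 0.22 and Khk at -0.15 ± 0.09 after Tkt. Of 10 genes that control acetyl-CoA carboxylase, 6 were lower (median -0.06, single genes from -0.15 to 0.41). Their smallest p-values belonged to the AMPK subunits Prkab2 (0.15) and Prkaa1 (-0.10) and to Mlycd (-0.10), which degrades malonyl-CoA. Of 13 insulin signalling genes, 9 were lower (median -0.06), with Insr at -0.18 ± 0.11, Akt2 at -0.25 ± 0.16 and Tsc1 at -0.12 ± 0.11.

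Cholesterol synthesis, which SREBP2 drives, was lower for 12 of 17 genes with a median of -0.06, with Fdft1 at -0.24 ± 0.23 and Hmgcs1 at 0.24 ± 0.23. Mitochondrial fatty acid synthesis, a separate route that feeds lipoate, was lower for 5 of 8 genes (median -0.05), with Acsf3 at -0.23, Ndufab1 at -0.29 and Mecr at 0.25. Among 5 relatives of member genes, all 5 were lower (median -0.40), including Acss3 (-0.49 ± 0.18), the dicarboxylate carrier Slc25a10 (-0.41 ± 0.31) and the acetoacetyl-CoA synthetase Aacs (-0.40 ± 0.35).

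The genes of each list that tracked the members were counted. With deviations from the genotype means over 8 arrays, r above 0.8 with the mean of the 10 members was found for 2.96% of 14924 named genes. It was found for 10 of 19 glucose and pyruvate genes, 5 of 12 elongation and desaturation genes and 5 of 17 cholesterol genes. The NADPH supply list held 4 of 11 such genes and triglyceride assembly 3 of 16. In the insulin signalling list it was found for 0 of 13. Elovl6 followed the members with r = 0.99, Tkt with 0.97, Pcx with 0.96 and Scd1 with 0.89, whereas Srebf2 stood at -0.03. These r values share the pair of extreme arrays.

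**Figure D5:**
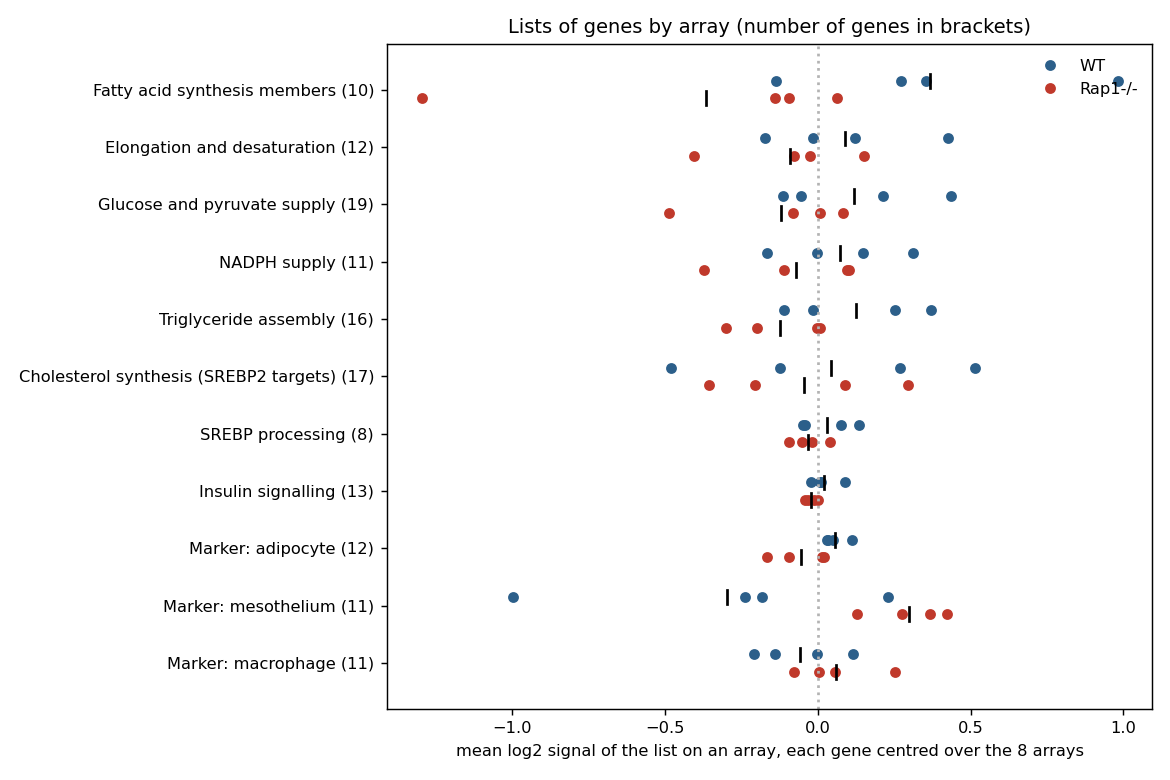
Mean log2 signal of each list on each array, every gene centred over the 8 arrays (horizontal axis), for the members, 7 related lists and 3 lists of cell type markers; blue points are WT arrays, red points Rap1-/- arrays and black ticks group means. The members range from -1.30 to 0.98, the adipocyte markers from -0.17 to 0.11.

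Markers of the cells in the tissue were set beside the members. The defining adipocyte genes were bright on every array, with 10 of 12 lower in Rap1-/- (median -0.18), and the list's mean ran from -0.17 to 0.02 in Rap1-/- and from 0.03 to 0.11 in WT. The fatty acid binding protein Fabp4 (-0.27 ± 0.09) and the droplet protein Cidec (-0.31 ± 0.10) did not overlap, adiponectin (Adipoq) differed by -0.12 ± 0.15, and leptin (Lep) by 0.63 ± 0.31. On Rap1-/- replicate 1, where the members averaged -1.30, the adipocyte list averaged 0.01. With r taken within genotypes, 0 of 12 adipocyte genes exceeded 0.8 with the members, which is near the share of 2.96% over all named genes.

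Mesothelial markers were higher in Rap1-/- for 11 of 11 genes (median 0.63), with list means from 0.13 to 0.42 in Rap1-/- and from -0.997 to 0.231 in WT. Fibroblast and preadipocyte markers were higher for 10 of 12 (median 0.24, from 0.07 to 0.18 in Rap1-/- and from -0.52 to 0.31 in WT), and macrophage markers for 8 of 11 (median 0.15, from -0.08 to 0.25 and from -0.21 to 0.12). Skeletal muscle markers were lower for 12 of 12 and varied most, from -4.98 to 3.33 in Rap1-/- and from -0.75 to 2.00 in WT, with -3.89 on replicate 1 and -4.98 on replicate 4 of Rap1-/-. Those arrays lay far apart for the members, at -1.30 and -0.09. Liver-type transcripts were lower for 8 of 8 (median -0.37, from -1.09 to 0.62 and from -0.93 to 1.25), brown fat genes for 5 of 7 (median -0.27, from -0.72 to 0.87 and from -0.51 to 0.91) and endothelial genes for 5 of 8 (median -0.03, from -0.35 to 0.28 and from -0.16 to 0.22). Lymphocyte genes were lower for 3 of 9 (median 0.03, from -0.11 to 0.15 and from -0.25 to 0.28). Of the mammary epithelial markers, a cell type that also makes fatty acids, 4 of 10 were kept; caseins, Wap, Epcam and Elf5 did not reach background on enough arrays, and list means ran from -0.06 to 0.13 and from -0.18 to 0.08. The part of these cell types in the members' difference was not tested.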

How the data were processed

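Total RNA from white fat of 4 Rap1-/- and 4 WT samples was labelled with Cy3 for one-colour Agilent arrays. The file headers name Feature Extraction 10.7.3.1 and a design built on mm9. The deposited scanner files give each spot's processed signal as an intensity on a linear scale, background-subtracted and not normalised between arrays. The authors' deposited value table holds log2 values, which were matched by normexp correction (offset 50) and quantile normalisation, and it served as an alternative. The scanner flags (well above background, saturated, outlier) are 0 or 1, a score per the file headers. RNA integrity is given in the labels as a range for all samples only.

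For each array, the log2 processed signal minus the log2 75th percentile was taken, control spots and flagged outlier spots were left out, and replicate spots were averaged. Of 55681 gene probes, 26056 (46.8%) could be named by RefSeq accession from a table for GRCm38.p6. The filter required a probe to exceed background on 4 or more of 8 arrays, and those that did were tested, 33982 in all, and 13 with a missing value were left out. The brightest probe stood for a gene. Genotypes were compared with limma 3.58.1 (lmFit, eBayes) in R 4.3.3, adjusted by Benjamini-Hochberg across the tested probes at a threshold of 0.05, and with exact two-sided permutation over 70 assignments. The fit was tested on simulated data. The members, the lists and the alternatives were chosen with earlier results of these data known. Named were all members with every probe, up to 3 genes with the smallest p in each pathway list, and the 8 genes most correlated with the members, except 2 genes that are not reported here; Scd1, G6pdx and the marker genes were named after their values were seen. Promoter windows are RefSeq sequences, available for all 10 members. Alternatives covered background correction, normalisation, filters, probe choice, slide and replicate blocks, the variance model, each slide alone and leaving out each array. The number of arrays limits the precision. Figures were drawn with matplotlib.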

Additional observations from a re-analysis of the deposited data

Results flagged for a closer look

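Single arrays stood apart from the other 3 of their genotype in 8 of 36 groups of 4 arrays, measured as the gap to the nearest array divided by the group's range. Chance gives about 1 in 20 such groups if values are normally distributed, and probes of a gene and members that move together are not independent. The share over all tested probes is not given, so whether 8 of 36 is unusual on these arrays was not tested. On Rap1-/- replicate 1 the gap was 0.937 of the range for Acaca probe A_55_P2019058, 0.881 for A_55_P2084703 and 0.957 for A_55_P2121392. It was 0.939 for Me1 probe A_55_P2016842 and 0.838 for Slc25a1 probe A_66_P130241 on that array, and 0.852 for the mean of the 10 genes. On WT replicate 1 it was 0.867 for Acaca probe A_55_P2084703 and 0.894 for Srebf1 probe A_55_P2002557. The low array was thus a Rap1-/- array and the high array a WT array, both with replicate number 1 and both on slide 1. The cause was not tested.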

How the results depend on the processing

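No member probe passed the adjusted threshold under any of the 23 alternatives, and 229 of 230 gene differences were lower in Rap1-/-, with adjusted p between 0.553 and 1.00. The exception was Mlxipl at 0.0047 without both arrays numbered replicate 1. The number of member probes with an unadjusted p under 0.05, 5 as reported, was 12 with normexp correction, 2 with quantile normalisation, 1 with scaling to the E1A spike-ins, 3 with the slide as a block, 2 with trended robust variance, 2 within slide 1 and 9 within slide 2. It was 2 of 10 genes with 1 probe per gene and 2 of 10 with the mean of a gene's probes. Leaving out 1 array gave 0 to 13, with 0 without WT replicate 1, 13 without WT replicate 2, 8 without Rap1-/- replicate 2, 1 without Rap1-/- replicate 1 or WT replicate 3, 2 without WT replicate 4 and 3 without Rap1-/- replicate 3; it was 1 without both arrays numbered replicate 1. With the replicate number as a block it was 0. Deviations of samples with the same number had r from -0.21 to -0.10. Such deviations sum to 0 within each genotype of 4 arrays, so these r values cannot show whether the numbers pair samples. The median over the 10 genes was -0.55 with E1A scaling, which put the median of all probes at 0.19, and Mlxipl was then at -0.02. The cause of these shifts was not tested.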

Other observations

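Outside all lists, the 8 named genes whose signal was most like the mean of the 10 members over the 8 arrays, of 13725 candidates above background on every array, included Susd1 (r = 0.99), Nup62, Nrtn, Cox5a, Pmm1, Eno1 and Polr2h (0.97 to 0.98). Susd1 differed by -0.80 ± 0.33 between the genotypes and Eno1, a glycolytic enzyme, by -0.41 ± 0.17. Cox5a, a respiratory chain subunit, differed by -0.29 ± 0.15, while Nup62, a nuclear pore protein, had r = 0.98 and Spearman rho = 0.83 with the members at a difference of -0.07 ± 0.08. None passed the test. With so many candidates and 8 arrays, high r values are found by search alone, and over the 6 arrays without both replicates 1 the r values of these genes ran from 0.79 to 0.87. Genes running opposite to the members included Thbs1, thrombospondin, with r = -0.96 over 8 arrays, -0.58 without both replicates 1, and a difference of 1.05 ± 0.60. It was chosen from the list of most negative r after its values were seen.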
